A study of Mus musculus with 12 samples.

Results

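The genes described here are 10 members of the BCL2 family, which sets the threshold at which a cell dies by the mitochondrial route. They were chosen by gene symbol, as *Bcl2*, *Bcl2l1*, *Mcl1*, *Bcl2l11*, *Bbc3*, *Pmaip1*, *Bax*, *Bak1*, *Bid* and *Bad*. They are 10 of the 40077 genes listed for the cultured cells and 10 of the 34508 listed for the tumors, and all 10 had enough reads to be tested in both. The series asked which transcripts changed when CDK12 and CDK13, kinases of transcription elongation, were removed with YJ1206, an oral degrader of both. Myc-CaP is a mouse prostate cancer cell line from a tumor driven by a human MYC transgene. Myc-CaP cells received DMSO or YJ1206 at 1 μM, the latter for 24 hours by the sample labels, with 3 libraries per group. Subcutaneous Myc-CaP tumors grown in FVB mice received vehicle or oral YJ1206 at 100 mg/kg, given 3 times per week, again with 3 libraries per group. The age of the mice and the day of tumor collection are not given in the sources used here. All material came from 1 cell line, and each tumor library held host cells as well as cancer cells.

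Family members share short BCL2 homology motifs and fall into classes that act against each other. The survival proteins BCL2, BCL-XL (encoded by *Bcl2l1*) and MCL1 hold the effectors BAX and BAK in check at the outer mitochondrial membrane. BH3-only proteins, among them BIM (*Bcl2l11*), PUMA (*Bbc3*), NOXA (*Pmaip1*), BID and BAD, bind the survival proteins or the effectors, and freed effectors form pores that let cytochrome c out and start the caspases. MCL1 protein and its transcript both turn over quickly, and for that reason *Mcl1* is often followed when transcription is inhibited.

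The 250 bases before the annotated start of 4 members are shown because these genes stand for the roles that moved with YJ1206 in cells: a survival gene that fell (*Mcl1*), BH3-only genes that rose (*Bcl2l11* and *Bbc3*) and an effector that rose (*Bax*). Sequences are RefSeq's on GRCm38.p6, 5′ to 3′ on the strand of the gene. *Mcl1* (chr3:95658471-95658720) and *Bcl2l11* (chr2:128125788-128126037) lie on the plus strand, as does *Bbc3* (chr7:16309333-16309582), and *Bax* (chr7:45466899-45467148) lies on the minus strand. Capitals mark a match to the p53 half-site consensus, searched by its usual degenerate pattern on both strands.
Mcl1: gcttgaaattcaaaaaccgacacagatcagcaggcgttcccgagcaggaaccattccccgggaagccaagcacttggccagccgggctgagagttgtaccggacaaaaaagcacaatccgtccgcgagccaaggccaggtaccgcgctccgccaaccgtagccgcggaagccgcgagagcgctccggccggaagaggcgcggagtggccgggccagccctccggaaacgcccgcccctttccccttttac
Bcl2l11: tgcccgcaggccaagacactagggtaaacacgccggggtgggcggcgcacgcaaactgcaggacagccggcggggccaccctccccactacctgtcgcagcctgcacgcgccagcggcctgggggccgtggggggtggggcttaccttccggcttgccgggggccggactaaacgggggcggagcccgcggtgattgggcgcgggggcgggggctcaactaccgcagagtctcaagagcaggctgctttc
Bbc3: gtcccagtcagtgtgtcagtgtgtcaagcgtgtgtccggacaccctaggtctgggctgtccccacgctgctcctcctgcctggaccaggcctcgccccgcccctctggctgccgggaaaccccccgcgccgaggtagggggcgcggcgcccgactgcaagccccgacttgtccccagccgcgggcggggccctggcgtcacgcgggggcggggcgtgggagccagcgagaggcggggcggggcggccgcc
Bax: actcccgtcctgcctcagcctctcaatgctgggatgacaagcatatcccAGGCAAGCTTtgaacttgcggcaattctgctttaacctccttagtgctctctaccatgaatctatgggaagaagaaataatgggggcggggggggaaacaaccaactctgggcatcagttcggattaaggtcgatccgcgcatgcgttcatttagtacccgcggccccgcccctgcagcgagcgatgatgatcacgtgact
The RefSeq table held such windows for 9 of the members and none for *Pmaip1*, which was therefore not searched. The *Bax* window was the only one of the 9 with a half-site match, 201 bases before the start, and 7.13% of all 32851 windows of this length held one. *Bax* was also the only one with the E-box CACGTG, 9 bases before the start, which 6.02% of all windows held. The GC box GGGCGG was found on either strand in 32.7% of all windows. It occurred 7 times before *Bcl2*, 5 times before *Bbc3*, 3 times each before *Bcl2l11*, *Bid* and *Bad*, 2 times before *Bax* and 1 time before *Mcl1*. No match to GGGCGG stood before *Bcl2l1* or *Bak1*. Neither TGANTCA, the AP-1 motif (6.75% of all windows), nor TATAAA (12.4%) was found before any of the 9. GC content ranged from 47.6% before *Bcl2l1* to 76.4% before *Bbc3*. A match says only that these letters stand in the window.

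Libraries held 13936902 to 18519926 estimated counts in the cells and 15391544 to 26928365 in the tumors, so that 3 counts correspond to 0.111 to 0.215 CPM (a count relative to the library's total), counting error only. The *Bbc3* count in DMSO cells came closest to that limit, at 9, 24 and 30. Every other member had at least 129 counts in every library. The labels name the DMSO and YJ1206 cell libraries from separate number series, so that library series and treatment cannot be told apart in the cells. Tumor libraries numbered 3 stood apart in another way. Among genes that differed at least 2-fold between libraries 1 and 2, library 3 lay between them for 91.4% in the vehicle group and 85.5% in the YJ1206 group, against 35.3% to 73.1% for the other libraries of the series, so the tumor results are also given without it. In cells, the share of TPM (a level corrected for transcript length and library size) taken by mitochondrially encoded genes was 8.87% to 9.29% with DMSO and 13.1% to 13.2% with YJ1206. Its part in the cell results was not tested. Of 5 epithelial markers only *Krt8* was tested in cells, where it rose from 3.0 to 32.4 CPM with YJ1206 (log2 fold change 3.43, adjusted p = 6.69e-21), and *Epcam* and *Cldn7* were listed at 0 there. The part of this shift in the cell results was not tested.

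In cultured cells YJ1206 moved every member (edgeR quasi-likelihood test, adjusted p under 0.05, 10 of 10). All 3 survival members fell, both effectors rose, and the BH3-only members divided into 3 that rose and 2 that fell. The median log2 fold change of the 10 was 0.05, beside -0.02 over all 11826 genes tested. Most of the transcriptome also moved, since 76.1% of all genes tested passed the same threshold, 37.8% upward and 38.3% downward. Upward calls were 49.7% of all cell calls here, 36.1% with total-count scaling and 29.2% with TPM. The CPM ranges of the groups did not overlap for any member, which was true of 77.5% of all genes tested. Counts of this kind are therefore near the background, and the sizes and directions of the single members carry the description.

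*Mcl1* stood at 207.8, 196 and 198.5 CPM in DMSO cells and at 104.3, 97.89 and 97.98 CPM after YJ1206. Every treated library lay far below every control library. The log2 fold change was -1.0 (SE 0.038, adjusted p = 9.25e-19). *Bcl2* read 25.49, 25.67 and 25.09 CPM with DMSO and 9.232, 12.6 and 10.38 CPM with YJ1206, and it fell by 1.24 on the log2 scale (SE 0.096, adjusted p = 3.67e-12). On log2(TPM + 1), a scale that understates the change of low genes, *Bcl2* was at -1.18 and *Mcl1* at -1.29. On log2(TPM + 0.1) they were at -1.47 and -1.31, and *Bcl2* fell further in every other alternative too. *Bcl2l1*, the gene of BCL-XL, moved least of the 3, from 93.21, 97.82 and 90.64 CPM to 79.94, 76.53 and 76.14 CPM (log2 fold change -0.28, SE 0.042, adjusted p = 1.54e-06). The survival members thus fell by unequal amounts, with *Bcl2l1* keeping the largest share of its control level.

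*Pmaip1*, which encodes NOXA, a BH3-only protein that binds MCL1 by preference, rose in the cells. It read 41.4, 39.15 and 41.31 CPM with DMSO and 166, 168 and 179 CPM with YJ1206, a 4.21-fold rise (log2 fold change 2.07, SE 0.043, adjusted p = 1.75e-24). *Bbc3*, encoding PUMA, a potent BH3-only activator of apoptosis, rose from 0.4617, 1.239 and 1.511 CPM to 3.936, 3.245 and 4.384 CPM. Its log2 fold change of 1.84 had the largest error of the 10 (SE 0.30, adjusted p = 3.68e-06). Without DMSO library 3 *Bbc3* was at 2.17 and *Pmaip1* at 2.08, and *Bbc3* stayed the lowest or next to lowest member in the cells. *Bcl2l11*, encoding BIM, which binds every survival protein, rose from 21.29, 20.5 and 21.01 CPM to 32.49, 35.17 and 35.15 CPM (log2 fold change 0.71, SE 0.069, adjusted p = 4.71e-10).

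The other BH3-only members went down. *Bad*, whose protein is held inactive by survival-factor phosphorylation, fell from 23.8, 24.63 and 25.7 CPM to 14.24, 13.89 and 16.53 CPM (log2 fold change -0.73, SE 0.085, adjusted p = 1.36e-08). *Bid*, which links death receptors to mitochondria after caspase-8 cuts it, fell from 17.18, 18.28 and 16.27 CPM to 12.45, 13.58 and 13.61 CPM (log2 fold change -0.38, SE 0.092, adjusted p = 0.000524). On the annotation, *Bid* overlaps *Bcl2l13* and *Bad* overlaps *Gpr137*, each on the opposite strand, and *Bak1* overlaps *Ggnbp1* in the same way. Whole gene spans were compared, not exons, and whether strand was used in counting is not given in the sources used here. Whether reads from the partner gene enter the values of these 3 members was not tested.

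Of the effectors, *Bax* rose from 51.09, 54.69 and 53.15 CPM to 98.33, 98.87 and 104.7 CPM (log2 fold change 0.92, SE 0.045, adjusted p = 1.57e-16). *Bak1* rose less, from 66.94, 72.15 and 73.21 CPM to 94.9, 89.36 and 91.29 CPM (log2 fold change 0.38, SE 0.044, adjusted p = 1.59e-08). The *Bak1* call rests on the scaling. On log2(TPM + 1) its change was 0.07 with an adjusted p of 0.181, and its TPM values of 53.04, 54.96 and 56.35 with DMSO overlapped those of 60.61, 55.35 and 57.21 with YJ1206. The directions of the other 9 members in cells held with total-count scaling and with TPM, although TPM moved the median of all genes from -0.02 to -0.25. With log2(TPM + 1) the change was -0.52 for *Bcl2l1*, -0.68 for *Bid*, 0.59 for *Bax* and 1.13 for *Bbc3*, and with total counts that of *Bcl2l1* was -0.46.

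**Figure D1:**
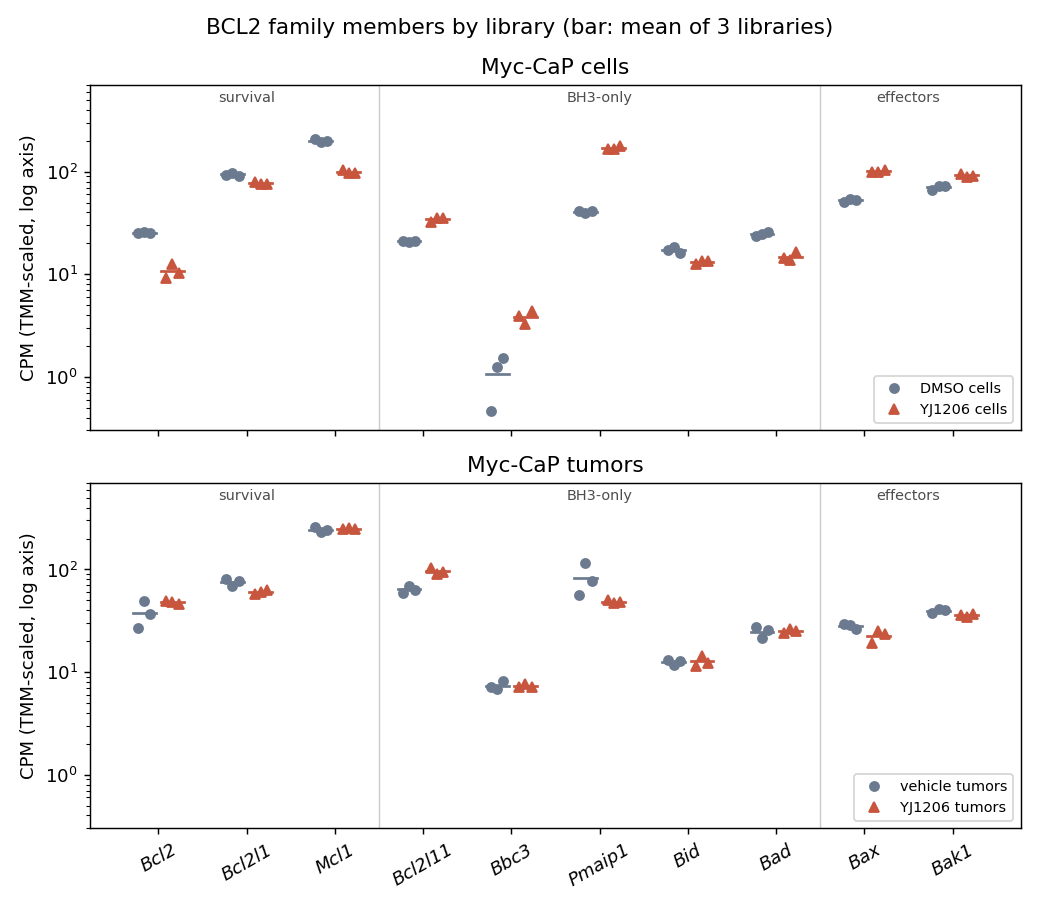
CPM of each BCL2 family member on a log axis, by role, in cells (top) and tumors (bottom); circles are control libraries, triangles YJ1206 libraries and short lines the means of 3. In cells no member's groups overlap, with *Pmaip1* moving from between 39.15 and 41.4 CPM to between 166 and 179 CPM, and in tumors the *Bcl2* and *Pmaip1* points of the vehicle group spread widely.

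In tumors 3 of the 10 members passed the threshold, beside 26.8% of the 15558 genes tested. *Bcl2l11* was the 1 member that rose, where 11.9% of all genes rose, and *Bcl2l1* and *Pmaip1* were the 2 that fell, where 14.9% of all genes fell. The median log2 fold change of the members was 0.01, as it was over all genes tested. At an unadjusted p under 0.05 the count was 4, *Bax* being the other one. CPM ranges did not overlap for 5 members (*Bcl2l1*, *Bcl2l11*, *Pmaip1*, *Bax* and *Bak1*), beside 44.6% of all genes. The count was 1 without vehicle library 3 or without any 1 of the YJ1206 libraries, and 4 without vehicle library 2. With libraries 1 and 2 alone, 0 members passed the edgeR threshold, 2 members had an unadjusted p under 0.05, and 1 gene of the whole table was called.

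*Bcl2l11* read 59.58, 69.69 and 63.4 CPM in vehicle tumors and 103.9, 89.32 and 94.86 CPM in YJ1206 tumors. Every treated tumor lay above every vehicle tumor, and the log2 fold change was 0.58 (SE 0.084, adjusted p = 0.00374). Without libraries 3 it was again 0.58, with an adjusted p of 0.144. This member rose in both materials, by 0.71 in cells and 0.58 in tumors on the log2 scale, and the difference between them did not pass the test (-0.16, adjusted p = 0.214).

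*Bcl2l1* was lower in the treated tumors as it was in the treated cells. It read 80.22, 68.3 and 76.39 CPM with vehicle and 57.34, 60.19 and 62.59 CPM with YJ1206 (log2 fold change -0.32, SE 0.078, adjusted p = 0.0218). The estimate lay between -0.40 and -0.27 in all 13 alternatives, but the call was lost in 5 of them. It was lost without vehicle library 3 (adjusted p = 0.0897), without YJ1206 library 1 (0.0715), 2 (0.07) or 3 (0.0663), and without both libraries 3 (0.246). The effects in cells and tumors differed by -0.07 (adjusted p = 0.559), a sign that turned with total-count scaling (0.14) and with TPM (0.13).

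*Pmaip1* went the other way from the cells. Vehicle tumors read 55.84, 116 and 77.62 CPM and YJ1206 tumors 50.3, 46.72 and 48.31 CPM. The vehicle tumors were spread over a 2-fold range and the treated tumors sat together just below the lowest of them (log2 fold change -0.78, SE 0.24, adjusted p = 0.0462). Leaving out vehicle library 2 brought the change to -0.46, and the call was lost in 6 of 13 alternatives, among them the fit without libraries 3 (-0.83, adjusted p = 0.275) and those without vehicle library 3 (0.102) or without YJ1206 library 1 (0.108), 2 (0.128) or 3 (0.136).

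For the other members the tumor data gave no call. *Mcl1* was at 260.9, 231.2 and 241.1 CPM with vehicle and 248.6, 251.5 and 250.1 CPM with YJ1206, so that the treated values fell inside the vehicle range (log2 fold change 0.03, SE 0.059, adjusted p = 0.719). *Bcl2* was at 26.59, 49.62 and 37.16 CPM with vehicle and 48.99, 47.97 and 46.29 CPM with YJ1206. The lower vehicle tumors lay below all treated ones and vehicle library 2 above them (log2 fold change 0.34, SE 0.20, adjusted p = 0.259). Without that library the change was 0.59 and passed the threshold (adjusted p = 0.0109), and without vehicle library 1 it was 0.13 (adjusted p = 0.496).

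*Bax* and *Bak1* were lower in every treated tumor, without passing the test. *Bax* read 29.16, 28.73 and 26.5 CPM with vehicle and 19.28, 25.02 and 23.25 CPM with YJ1206 (log2 fold change -0.32, SE 0.11, adjusted p = 0.0725). On log2(TPM + 1) the *Bax* value was -0.39 and passed (adjusted p = 0.0313). *Bak1* read 37.27, 41.41 and 40.2 CPM against 35.82, 34.77 and 36.71 CPM (log2 fold change -0.15, SE 0.072, adjusted p = 0.171). *Bbc3* (0.00116, SE 0.12), *Bid* (0.01, SE 0.12) and *Bad* (0.03, SE 0.11) had estimates near 0, CPM groups that overlapped and adjusted p values of 0.996, 0.957 and 0.892. For *Bbc3* this depended on the scale, since on log2(TPM + 1) it was at -0.39 without passing (adjusted p = 0.0955).

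The tumor is a mixture, and in bulk RNA fewer cells of a type and less RNA per cell cannot be told apart. Leukocyte markers summed to 153.1, 361.7 and 239.8 TPM in the vehicle tumors and 419.2, 450.8 and 445.3 TPM in the YJ1206 tumors, with 0 of the 6 genes past the threshold by edgeR or DESeq2 and 3 higher at an unadjusted p under 0.05. In the cells that sum was at most 0.516 TPM. Skeletal muscle markers summed to 710.1, 29.33 and 430.8 TPM with vehicle and 12.34 to 14.74 TPM with YJ1206, with 5 of 5 tested genes lower. Fibroblast markers summed to 734.8, 226.2 and 531.9 TPM with vehicle and 165.5 to 363.5 TPM with YJ1206, with 0 of 7 past the threshold by edgeR, 1 lower by DESeq2 and 3 lower at an unadjusted p under 0.05. The leukocyte sum is mostly *Cd52*, whose mean was 183 TPM with vehicle and 359.6 TPM with YJ1206. Vehicle library 2 had the highest leukocyte sum of its group and the lowest muscle, fibroblast, macrophage (343.1 TPM) and neutrophil (20.98 TPM) sums. It also had the highest *Bcl2* (13.98 TPM) and *Pmaip1* (72.15 TPM). Macrophage markers ranged from 343.1 to 534.2 TPM with vehicle and 390.4 to 511.7 TPM with YJ1206, 4 of 9 being higher. Epithelial markers summed to 78.74, 61.06 and 71.31 TPM with vehicle and 74.95, 81.35 and 78.53 TPM with YJ1206. Of the 3 tested, 0 passed by edgeR or DESeq2 and 1 was higher at an unadjusted p under 0.05. In the same order of groups, T cell sums were 10.1 to 16.98 TPM and 11.26 to 13.63 TPM. B cell sums were 0.9396 to 1.387 TPM and 0.5302 to 1.159 TPM. Neutrophil sums were 20.98 to 28.06 TPM and 11.76 to 17.41 TPM, and endothelial sums 51.35 to 52.88 TPM and 55.15 to 61.78 TPM. Of 4 T cell markers tested 1 was higher with YJ1206 (*Cd8a*, 0.74, adjusted p = 0.021), and of 6 endothelial markers 1 was higher (*Cdh5*, 0.27, adjusted p = 0.0427). Of 4 neutrophil markers 1 was lower (*S100a9*, -1.21, adjusted p = 0.0437), and the 1 B cell marker tested passed neither by edgeR, at an unadjusted p under 0.05 included, nor by DESeq2. The part of cell mixture in the tumor values of the members was not tested.

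**Figure D2:**
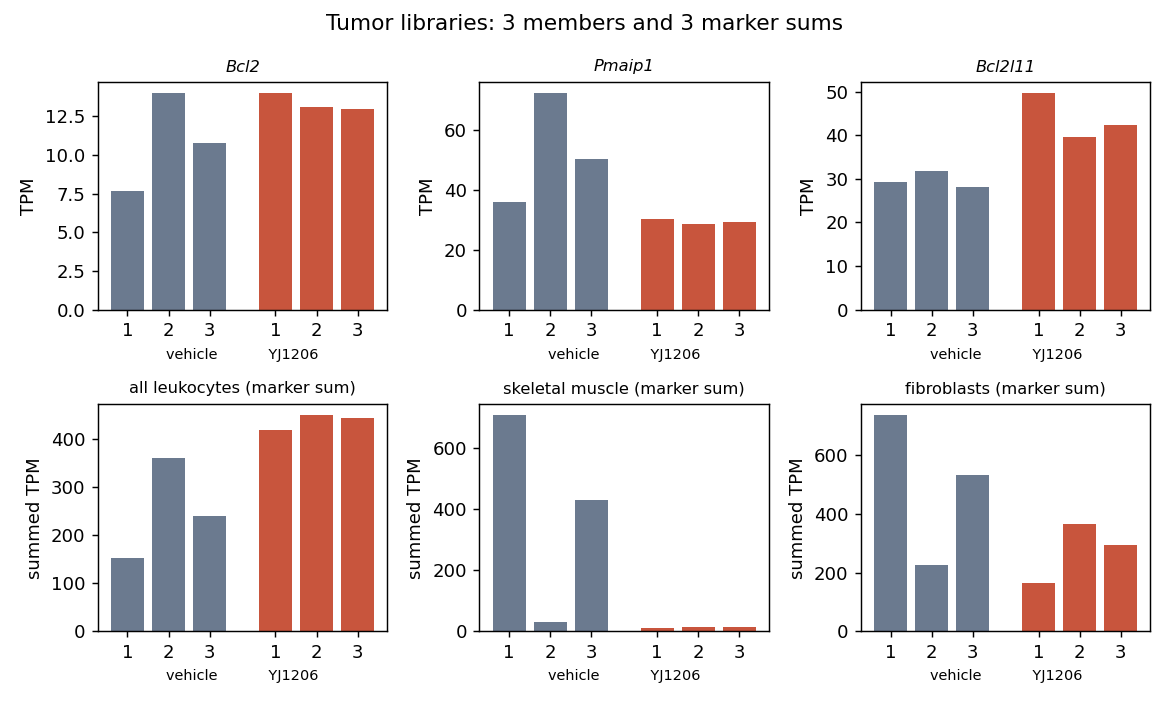
Bars give the TPM of *Bcl2*, *Pmaip1* and *Bcl2l11* and the summed TPM of leukocyte, skeletal muscle and fibroblast markers in each of the 6 tumor libraries, vehicle in gray and YJ1206 in red. Vehicle library 2 has the highest *Bcl2*, *Pmaip1* and leukocyte bars of its group and the lowest muscle and fibroblast bars, while *Bcl2l11* is higher in all 3 YJ1206 libraries.

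The YJ1206 effect was then compared between tumors and cells in 1 fit over all 12 libraries. That fit shares 1 estimate of spread per gene between materials whose spreads differ, which limits its p-values. The SD of CPM as a percentage of the mean was 3.14% in DMSO cells and 36.6% in vehicle tumors for *Pmaip1*. For *Bcl2* it was 1.17% and 30.5%, and for *Bbc3*, the other way, 50.9% and 9.52%. The interaction term passed for 7 of the 10 members, beside 46.8% of the 15328 genes tested. The effect in tumors was the higher one for *Bcl2* (difference 1.55 on the log2 scale, adjusted p = 0.000184), *Mcl1* (1.01, adjusted p = 1.93e-07) and *Bad* (0.73, adjusted p = 0.00131), and 20.9% of all genes had a difference of that sign past the threshold. It was the lower one for *Pmaip1* (-2.89, adjusted p = 1.05e-06), *Bbc3* (-1.87, adjusted p = 0.00103), *Bax* (-1.28, adjusted p = 1.46e-06) and *Bak1* (-0.55, adjusted p = 6.33e-05), beside 26.0% of all genes. Higher effects in tumors were 44.6% of all calls, and 61.4% with total-count scaling. These 7 calls were kept in all 19 alternatives, the fit without tumor libraries 3 included. *Bid* differed by 0.37 (adjusted p = 0.0629). Cells and tumors were prepared in separate experiments and given different doses and schedules, so material, dose and time cannot be told apart in these differences.

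**Figure D3:**
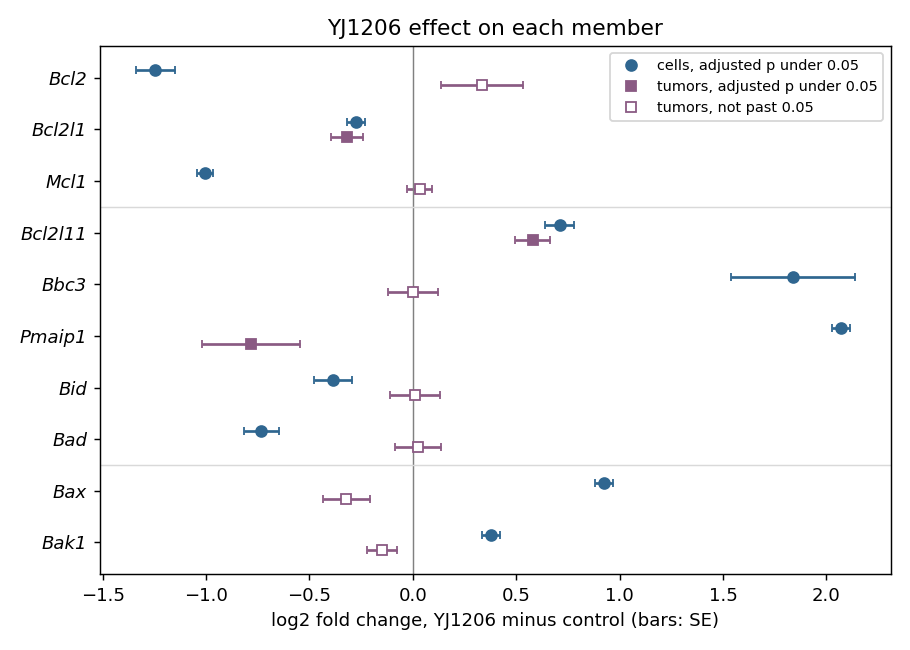
Log2 fold change of each member with YJ1206 in cells (circles) and tumors (squares), with SE bars; filled symbols have an adjusted p under 0.05. The cell values run from -1.24 for *Bcl2* to 2.07 for *Pmaip1*, whereas *Bcl2l1* and *Bcl2l11* are the only members filled in both materials with the same sign.

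Levels were compared between members on the TPM scale, which corrects for transcript length. In DMSO cells the order ran from *Bax* (140.1 ± 5.25 TPM, SD, n = 3) through *Mcl1* (103.5 ± 3.32), *Bcl2l1* (83.21 ± 7.33), *Bak1* (54.79 ± 1.66), *Bad* (51.76 ± 2.41), *Pmaip1* (26.8 ± 0.953), *Bid* (15.17 ± 0.73), *Bcl2l11* (8.924 ± 0.135) and *Bcl2* (6.347 ± 0.0753) to *Bbc3* (1.275 ± 0.328). Among neighbors in this order, *Bak1* and *Bad* were the 1 pair whose libraries overlapped. After YJ1206 the order became *Bax* (211 ± 6.36 TPM), *Pmaip1* (93.5 ± 4.1), *Bak1* (57.72 ± 2.67), *Bcl2l1* (57.48 ± 3.07), *Mcl1* (41.71 ± 1.82), *Bad* (27.37 ± 5.13), *Bcl2l11* (15.97 ± 1.86), *Bid* (9.091 ± 0.236), *Bbc3* (4.1 ± 1.61) and *Bcl2* (2.25 ± 0.435). Here *Bak1* and *Bcl2l1* overlapped, *Mcl1* had moved from the second to the fifth place, *Pmaip1* from the sixth to the second, and *Bcl2* to the last.

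Vehicle tumors had *Mcl1* at the top (119.5 ± 9.68 TPM) and *Bax* next (65.35 ± 3.6). *Bax*, *Bcl2l1* (63.29 ± 6.36) and *Pmaip1* (52.73 ± 18.3) each overlapped the next in order, down to *Bad* (44.36 ± 6.86). So did *Bcl2l11* (29.76 ± 1.94) and *Bak1* (28.54 ± 1.07), and *Bbc3* (12.42 ± 2.21), *Bid* (11.58 ± 0.673) and *Bcl2* (10.79 ± 3.17) at the end. In YJ1206 tumors *Mcl1* was again at the top (116.2 ± 0.82 TPM), followed by *Bax* (49.99 ± 5.78), *Bcl2l1* (47.91 ± 2.43), *Bcl2l11* (43.84 ± 5.21) and *Bad* (42.64 ± 2.63), which overlapped in sequence, and then by *Pmaip1* (29.24 ± 0.899), *Bak1* (24.51 ± 0.874), *Bcl2* (13.33 ± 0.545), *Bid* (11.82 ± 1.1) and *Bbc3* (9.168 ± 0.799). Cell and tumor tables were made separately, and levels set across them are side by side only. *Bax* stood at 134.4 to 144.7 TPM in DMSO cells and 62.04 to 69.19 TPM in vehicle tumors, and *Bcl2l11* at 8.817 to 9.075 TPM and 28.13 to 31.9 TPM.

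Sums over each role within a library put these levels together. The 3 survival members summed to 191.7, 198.4 and 188.9 TPM in DMSO cells and 106.7, 99.92 and 97.7 TPM in YJ1206 cells. *Mcl1* made up 50.6% to 55.8% of that sum with DMSO and 40.9% to 41.4% with YJ1206, and *Bcl2l1* went from 40.9% to 46.2% up to 56.3% to 57.1%. The 5 BH3-only members summed to 0.513 to 0.566 TPM per survival TPM with DMSO and 1.38 to 1.67 with YJ1206. This rise was not shared by the whole class. The mean BH3-only sum went from 104 to 150 TPM and *Pmaip1* within it from 26.8 to 93.5 TPM. *Bad* fell from 51.76 to 27.37 TPM and *Bid* from 15.17 to 9.091 TPM. The 2 effectors went from 0.978 to 1.05 per survival TPM up to 2.5 to 2.82. Most of the change in their sum was that of *Bax* (140.1 to 211 TPM), since *Bak1* went from 54.79 to 57.72 TPM. Both ratios come from within 1 library and do not depend on scaling between libraries. In the cells neither ratio overlapped between groups, where the CPM of 77.5% of all genes tested did not overlap either.

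The same sums moved less in tumors than in cells. The effectors summed to 91.25 to 96.49 TPM with vehicle and 68.4 to 78.24 TPM with YJ1206, which do not overlap. Survival members summed to 204.1, 180.1 and 196.6 TPM with vehicle and 178.6, 174 and 179.6 TPM with YJ1206. These groups were only just apart, the lowest vehicle sum being 180.1 TPM and the highest YJ1206 sum 179.6 TPM. Among single genes, the CPM of 44.6% of all genes tested in tumors did not overlap. The *Mcl1* share was 60.4% to 63.5% with vehicle and 64.7% to 66.3% with YJ1206. BH3-only members stood at 0.678, 0.909 and 0.766 per survival TPM with vehicle and 0.777, 0.777 and 0.758 with YJ1206, which overlap. Effectors stood at 0.473, 0.521 and 0.464 with vehicle and 0.383, 0.45 and 0.428 with YJ1206, the opposite direction to the cells. These ratios describe transcripts and not proteins.

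**Figure D4:**
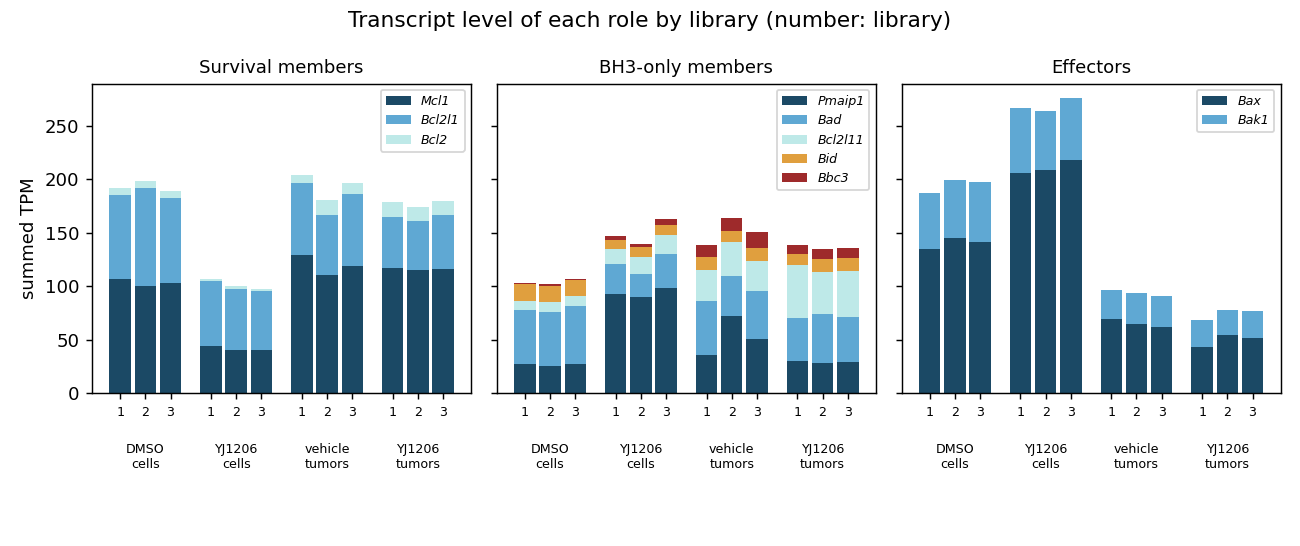
Stacked bars give the TPM of each member summed by role (survival, BH3-only, effectors) in each of the 12 libraries. In cells the survival bars drop from 188.9 to 198.4 TPM with DMSO to 97.7 to 106.7 TPM with YJ1206. The other bars grow there, mostly in *Pmaip1* and *Bax*. In tumors the bars differ less between groups. The tumor effector bars are at 91.25 to 96.49 TPM with vehicle and 68.4 to 78.24 TPM with YJ1206.

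The counts assigned to a gene per TPM follow the mean effective length of the transcripts that received its reads, and this measure was compared after centering on each library's median over genes. In cells it did not overlap between groups for 4 members (*Mcl1*, *Bcl2l11*, *Bax* and *Bid*), beside 57.4% of the 11716 genes with values. *Bcl2l11*, a gene with 8 annotated transcripts, had the largest shift, from 0.69 ± 0.034 with DMSO to 0.28 ± 0.133 with YJ1206 on the log2 scale (SD, n = 3), a difference of -0.41 whose size was above that of 96.9% of genes. The shifts of *Mcl1* (0.02), *Bax* (0.04) and *Bid* (0.06) were small. In tumors 4 members (*Bcl2*, *Mcl1*, *Bbc3* and *Bak1*) did not overlap, beside 42.2% of the 15492 genes with values. *Bbc3* shifted by 0.36, above 98.2% of genes. Its TPM values did not overlap (10.56, 11.84 and 14.87 with vehicle, 8.283, 9.385 and 9.836 with YJ1206) while its CPM values did. No test was made of these shifts.

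Gene length was examined as a feature that the choice of members did not use, since CDK12 is known to sustain the expression of long genes. On GRCm38 (GENCODE vM21), the *Bcl2* gene spans 176 kb, *Bcl2l1* 51.1 kb, *Bcl2l11* 36.5 kb, *Bid* 24.9 kb, *Bad* 10 kb, *Bbc3* 9.81 kb, *Bak1* 9.2 kb, *Bax* 5.2 kb and *Mcl1* 4.39 kb. The span of *Pmaip1* was not taken. The median log2 fold change over all genes tested in cells was 0.02 for spans up to 10 kb, -0.00031 from 10 to 30 kb, -0.03 from 30 to 100 kb and -0.10 above 100 kb. In tumors the medians of these bins were 0.05, 0.00197, -0.02 and 0.02.

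The genes most like each survival member over the 12 libraries were found by Pearson's r of log2(TPM + 1) among 12860 genes, as a description, since the libraries share their groups. For *Mcl1* they were *Tars2* (r = 0.997), *Mertk* (0.995) and *Cdc42ep2* (0.995). *Tars2*, which encodes the mitochondrial threonyl-tRNA synthetase, lies 76.8 kb from *Mcl1* on the same chromosome and read 50.5 TPM in DMSO cells, 20.7 in YJ1206 cells, 59 in vehicle tumors and 55 in YJ1206 tumors. For *Bcl2* they were *Spg7* (0.992), *Tor2a* (0.99) and *Pja2* (0.989), and for *Bcl2l1* they were *Sart3* (0.987), *Psme3* (0.983) and *Epha2* (0.974).

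Other genes of the pathway were taken from lists by role. Of 7 other BCL2 family genes tested in cells, 1 rose and 3 fell, with a median of -0.03. *Bcl2l2*, encoding the survival protein BCL-W, fell from 27.3 ± 0.489 to 7.42 ± 1.27 CPM (log2 fold change -1.88, SE 0.10, adjusted p = 1.79e-15), and *Bcl2l12* fell by 0.38. A readthrough gene, *Gm20521*, overlaps *Bcl2l2* on the same strand, so their reads may be split. On the opposite strand *Irf3* overlaps *Bcl2l12*, and *Comtd1* and *Gm37240* overlap *Vdac2* and *Fbxw7*, which are named below. Whether reads from these partner genes enter the values was not tested. *Bnip3l*, a mitophagy receptor, rose by 1.47. In tumors 2 of 11 rose and 0 fell by edgeR, 3 and 0 at an unadjusted p under 0.05 and 3 and 0 by DESeq2, with a median of -0.01. *Bmf*, encoding a BH3-only protein tied to the cytoskeleton, rose from 25.8 ± 1.97 to 88.3 ± 8.54 CPM (log2 fold change 1.77, SE 0.096, adjusted p = 0.000504), a larger change than that of any of the 10 members in tumors. Without libraries 3 the *Bmf* change was 1.74 with an adjusted p of 0.119. *Bik*, the other one to rise, was below the level set for naming.

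Downstream of the pore, 4 of 11 apoptosome and caspase genes rose in cells and 5 fell (median 0.04). *Cycs*, which encodes cytochrome c, rose by 0.81 and the effector caspase gene *Casp6* by 0.84 on the log2 scale, while *Dffa*, whose product holds the apoptotic nuclease inactive, fell by 1.07. In tumors *Cycs* was the 1 of 12 to pass and fell by 0.45 (adjusted p = 0.00509), with a list median of 0.01. Of 5 caspase inhibitor genes, *Xiap* fell by 0.96 in cells and *Birc2* rose by 0.48 (median -0.05), but *Birc2* was at 0.01 with an adjusted p of 0.924 on log2(TPM + 1). In tumors *Birc5* (survivin, a mitosis gene as well) fell by 1.14, *Xiap* fell by 0.21 and *Birc2* rose by 0.54 (median -0.16), but on log2(TPM + 1) *Xiap* (-0.17, adjusted p = 0.147) and *Birc2* (0.42, adjusted p = 0.0697) did not pass. The 3 mitochondrial porin genes all rose in cells, *Vdac3* by 0.64, *Vdac2* by 0.62 and *Vdac1* by 0.51 (median 0.62). On log2(TPM + 1) these rises were 0.32, 0.27 and 0.14. In tumors 0 passed by edgeR or DESeq2, 1 being lower at an unadjusted p under 0.05 (median -0.11). That gene, *Vdac1*, passed on log2(TPM + 1) (-0.20, adjusted p = 0.0199).

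In the death receptor pathway 3 of 9 genes rose and 4 fell in cells (median -0.08). *Cflar*, which encodes the caspase-8 inhibitor FLIP, fell by 1.33, the adaptor *Fadd* by 0.72 and the adaptor *Tradd* by 0.55. In tumors 2 of 11 rose and 1 fell (median -0.02), and *Tnfsf10*, encoding the ligand TRAIL, went from 9.53 ± 0.714 to 32.5 ± 6.93 CPM (log2 fold change 1.76, SE 0.16, adjusted p = 0.0011), while its mouse receptor gene *Tnfrsf10b* fell by 0.25. Of the genes for MCL1 ubiquitin ligases and deubiquitinases, 1 of 5 rose and 3 fell in cells (median -0.15), with *Btrc* up by 0.80, *Fbxw7* at -0.55 and *Huwe1* at -0.18. In tumors 1 of 7 rose and 1 fell (median -0.13), with *Fbxw7* at 0.38 (0.28 and not past on log2(TPM + 1), adjusted p = 0.0642) and *Cul5* at -0.25. Without libraries 3, 0 genes of these lists or of the caspase, porin and other BCL2 family lists passed in tumors by edgeR. The estimates of that fit were -1.17 for *Birc5*, -0.51 for *Cycs* and 1.78 for *Tnfsf10*, and at an unadjusted p under 0.05 it had 2 higher and 0 lower in the death receptor list, 1 and 0 among the MCL1 regulators, 0 and 1 among the caspases, 1 and 1 among the caspase inhibitors, 0 and 0 among the porins and 2 and 0 among the other BCL2 family genes.

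*Bax*, *Bbc3* and *Pmaip1* are textbook p53 targets. Among 4 p53 regulators and reference targets, *Cdkn1a* rose in cells from 7.55 ± 0.336 to 26.6 ± 1.61 CPM (log2 fold change 1.82), *Trp53* itself rose by 0.73, and *Mdm4*, a p53 inhibitor, fell by 1.28 (median 0.35). The fourth, the p53 target and inhibitor *Mdm2*, was at -0.03 (adjusted p = 0.627), and it was lower with total-count scaling (-0.21, adjusted p = 0.000189) and TPM (-0.33, adjusted p = 0.000782). In tumors *Trp53* fell by 0.50 (adjusted p = 0.00364) and the other 3 did not pass by edgeR (median -0.05). On log2(TPM + 1) *Mdm4* passed as well (-0.28, adjusted p = 0.0292). Without libraries 3 *Trp53* was at -0.50 with an adjusted p of 0.146, and 0 of the 4 passed by edgeR, with 1 lower at an unadjusted p under 0.05. *Mcl1* was also set beside 16 other short-lived transcripts. In cells 15 of these rose and 1 fell (median 0.87), among them *Fos* (4.0), *Id1* (2.83) and *Myc* (1.5), where *Mcl1* was at -1.0. With TPM 13 rose and 1 fell (median 0.51). The *Myc* value may include reads of the human transgene, which was not tested. In tumors 0 of the 16 rose and 9 fell by edgeR and by DESeq2, 0 and 10 at an unadjusted p under 0.05 (median -0.63), with *Egr1* at -4.24, *Fosb* at -2.0 and *Ier2* at -1.33, where *Mcl1* was at 0.03, and without libraries 3 the count was 1 lower of 16 with a median of -0.68.

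**Figure D5:**
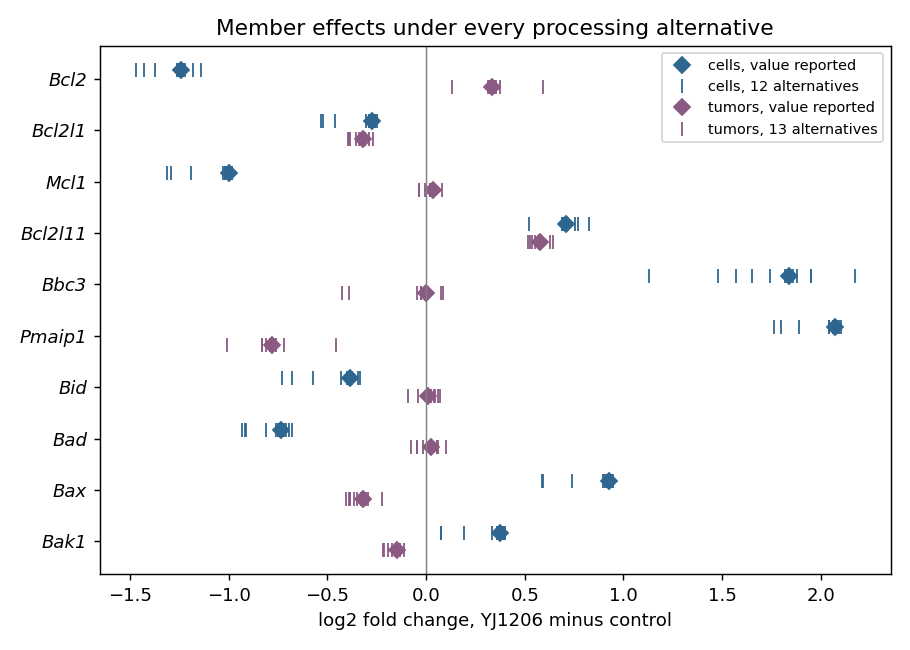
Log2 fold change of each member in cells and tumors as reported (diamonds) and under each processing alternative (ticks: 12 in cells, 13 in tumors). In cells no tick crosses 0, *Bak1* coming closest at 0.07, and in tumors *Mcl1*, *Bbc3*, *Bid* and *Bad* have ticks on both sides of 0.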

How the data were processed

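RNA sequencing of 12 mouse libraries (ribosomal RNA removed enzymatically by the protocol, although the cell labels say polyA RNA) was analysed from 2 pairs of tables. The authors deposited estimated counts per gene, not scaled between libraries, and TPM per gene, scaled within each library for transcript length. The submitters' processing notes name kallisto and GRCm38/mm10, and the versions are not given in the sources used here. Groups came from the sample labels, where the tumor treatment stands under the tag batch.

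Estimated counts were rounded, since the tests had been set for counts. The cell libraries and the tumor libraries entered separate edgeR fits (version 4.0.16, R 4.3.3) with filterByExpr, TMM factors and the quasi-likelihood F test, and a fit over all 12 gave the interaction. P-values were adjusted by Benjamini-Hochberg over all genes tested, at a threshold of 0.05. CPM are TMM-scaled. limma 3.58.1 on log2(TPM + 1) and log2(TPM + 0.1), DESeq2 1.42.0, total-count scaling, no filter, a replicate block and leaving out libraries were the alternatives. The separate edgeR fits of cells and of tumors were tested on simulated data. The interaction fit and the alternatives were not. A TPM fold change on the log2(TPM + 1) scale understates the change of low genes. Intervals and limits cover counting error only.

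The 10 members were all named. From each other list, up to 3 genes per experiment were named by size of change among those past the threshold, with a mean of at least 5 CPM and groups that did not overlap. The members and lists were chosen with earlier results of these data known. Of the MCL1 regulator list, the symbol March5 was not matched and is not analysed here. Libraries of a group differed by more than sampling noise (chi-square per gene 1.89 to 49.4). The study describes its replicates in general as biologically independent. The labels do not name the culture or animal of each library, so p-values measure the spread between these libraries. The prostate luminal marker list is not reported here.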

Additional observations from a re-analysis of the deposited data

Results flagged for a closer look

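The YJ1206 effect differed between tumors and cells by the interaction test for 7 members. The difference, tumors minus cells on the log2 scale, was 1.55 for *Bcl2* (adjusted p = 0.000184), 1.01 for *Mcl1* (1.93e-07) and 0.728 for *Bad* (0.00131), each of which fell in cells. It was -2.89 for *Pmaip1* (1.05e-06), -1.87 for *Bbc3* (0.00103), -1.28 for *Bax* (1.46e-06) and -0.554 for *Bak1* (6.33e-05), each of which rose in cells. Dose, schedule and material differ together between the experiments and cannot be told apart. The fit also shared 1 estimate of spread per gene between cells and tumors, whose spreads differ.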

How the results depend on the processing

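In cells 10 members were called under every count-based alternative, and 9 on log2(TPM + 1) or log2(TPM + 0.1), where *Bak1* (0.0735 and 0.0746) did not pass. Leaving out 1 library gave 10 members and 8622 to 8824 genes called. The share of cell calls that were upward was 49.7% under TMM, against 36.1% for total-count scaling and 29.2% for TPM. In tumors 3 members were called with DESeq2, total counts and no filter, 4 with TPM, 1 to 4 members and 1877 (without YJ1206 library 3) to 5724 (without vehicle library 2) genes without 1 library, and 0 members and 1 gene (3068 at an unadjusted p under 0.05) with libraries 1 and 2 alone, a fit with fewer samples. The interaction gave 7 or 8 members and 6594 to 7636 genes without 1 library. Its calls were upward in 44.6% of cases under TMM, against 61.4% for total-count scaling and 63.8% for TPM. Some tumor estimates near 0 changed sign, and the cause was not tested. Without 1 library they ran up to 0.0813 for *Mcl1*, 0.0742 for *Bbc3*, 0.0706 for *Bid* and 0.0988 for *Bad*. *Mcl1* was at -0.0375 and -0.0377 with TPM and -0.005 without vehicle library 2. *Bbc3* was at -0.000622 with total counts, -0.00636 with no filter, -0.391 and -0.423 with TPM, and -0.024, -0.0469 and -0.0258 without vehicle library 1, vehicle library 2 or YJ1206 library 2. *Bid* was at -0.0398 and -0.0915 without vehicle library 2 or YJ1206 library 2. *Bad* was at -0.046 and -0.0467 with TPM and -0.0764 and -0.0163 without those libraries. The interaction of *Bcl2l1* turned to 0.144 with total counts and 0.133 and 0.134 with TPM, and that of *Bcl2l11* to 0.0572 with total counts. Same-numbered libraries did not deviate together over all genes tested (r from -0.0289 to 0.0102). That gave no sign that the numbers pair the samples, but a pairing that touched few genes would not show in it. With a replicate block 10 members were called in cells, 2 in tumors, where *Pmaip1* was at -0.72 (adjusted p = 0.0773), and 7 for the interaction, with 8905, 3477 and 6853 genes.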
